A study of Rattus norvegicus with 12 samples.

Results

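The 7 genes described here encode components of the myelin sheath or make its lipids: Mog, Mobp, Mag, Cnp, Mbp, Mal and Ugt8. They were taken as every probe set whose only gene symbol in the platform annotation was one of these 7, which gave 13 of the 31042 probe sets on the array that were not controls (20826 of these carried a single symbol, for 14217 genes). Mobp and Mbp had 3 probe sets each, Cnp and Ugt8 had 2 each, and Mog, Mag and Mal had 1 each. Expression was measured on 12 one-colour Affymetrix rat arrays from young male Wistar rats. Acrylamide, an electrophilic vinyl monomer that is toxic to long axons, was given by oral gavage at 30 mg/kg each day for 21 days, and controls received saline, which one label calls solvent. The 6 groups were sciatic nerve after acrylamide and after saline, spinal cord after acrylamide and after saline, and cerebellum after acrylamide and after saline. Each group had 2 arrays, each made from tissue pooled from 2 rats, so that p-values measure the spread between pools. The starting age is given as 25 days in one label and as 3 weeks in another, and one label places collection 21 days after treatment, so the interval between the last dose and collection is not settled. Nor do the labels settle if a rat gave more than 1 of the tissues.

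Myelin is a spiral of glial membrane around an axon, made by oligodendrocytes in the brain and spinal cord and by Schwann cells in peripheral nerve. Some of its proteins belong to the oligodendrocyte form alone, while others are built into both. Galactosylceramide, the product of the Ugt8 enzyme, is a principal lipid of both. The genes are described below in the order of these roles: first Mog, a surface glycoprotein of the outermost oligodendrocyte myelin, and Mobp, a small basic protein of compact central myelin; then Mag, an adhesion glycoprotein next to the axon, Cnp, a phosphodiesterase of the cytoplasm-containing parts of myelin, and Mbp, which holds the inner faces of the membrane together; then Mal, a raft proteolipid of membrane traffic, and Ugt8.

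Sequence before the transcript start is shown for 4 of the genes, which have unlike tissue patterns and whose windows held the letters marked below. Mobp was far lower in the nerve than in the central tissues. Mag, Cnp and Mal were all called higher in cord than in cerebellum. Between nerve and cord, Mag was called lower in nerve, Mal was called higher, and Cnp was not called. RefSeq's table for build GRCr8 held 6 of the 7 genes, with 7 windows, and the 250 bases before the start were read from it. Letters bound by SOX factors such as Sox10 (ACAAAG and ACAATG, either strand) and the core letters bound by the myelin regulatory factor Myrf (CTGGCAC and CTGGTAC, either strand) were searched; these motifs do not overlap one another in the windows shown and were chosen after the letters had been seen. In the Mobp window the capitals mark the SOX-type letters, and in the other 3 windows they mark the Myrf-type letters. The windows are chr8:128746982-128747231 (plus strand) for Mobp, chr1:95291045-95291294 (minus strand) for Mag, chr10:86011254-86011503 (plus strand) for Cnp and chr3:135341424-135341673 (minus strand) for Mal.
Mobp: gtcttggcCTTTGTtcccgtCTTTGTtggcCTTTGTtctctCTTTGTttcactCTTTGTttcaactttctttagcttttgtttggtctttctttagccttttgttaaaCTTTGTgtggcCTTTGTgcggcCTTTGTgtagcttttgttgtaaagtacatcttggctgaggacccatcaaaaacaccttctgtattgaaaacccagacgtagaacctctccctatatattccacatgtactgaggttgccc
Mag: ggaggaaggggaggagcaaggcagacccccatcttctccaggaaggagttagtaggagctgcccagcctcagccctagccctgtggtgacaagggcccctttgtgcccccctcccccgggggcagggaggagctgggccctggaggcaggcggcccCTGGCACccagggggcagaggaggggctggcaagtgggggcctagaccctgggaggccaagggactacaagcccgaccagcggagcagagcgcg
Cnp: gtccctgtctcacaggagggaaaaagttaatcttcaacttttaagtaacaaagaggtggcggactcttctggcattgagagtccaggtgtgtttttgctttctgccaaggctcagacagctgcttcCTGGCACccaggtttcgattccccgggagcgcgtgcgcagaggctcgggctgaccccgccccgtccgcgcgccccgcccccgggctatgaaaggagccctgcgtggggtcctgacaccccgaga
Mal: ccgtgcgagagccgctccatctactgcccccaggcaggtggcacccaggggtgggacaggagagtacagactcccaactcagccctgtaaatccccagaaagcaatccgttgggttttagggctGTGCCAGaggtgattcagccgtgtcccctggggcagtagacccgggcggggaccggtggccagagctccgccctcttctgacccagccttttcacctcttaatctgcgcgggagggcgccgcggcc
The Mobp window held 8 SOX-type matches, all on the minus strand as CTTTGT, and no Myrf-type match, while Mag and Cnp held 1 SOX-type match each and Mal none. Of 33469 windows of the same length, 25.29% held at least 1 SOX-type match. The limit of 8 was taken from the Mobp window, which is itself 1 of the 2 windows with 8 or more, so this count is not a test. Mag, Cnp and Mal each held 1 Myrf-type match, at 94, 124 and 126 bases before the start. Of all windows 5.48% held at least 1. As the motifs were chosen after the letters had been seen, these shares do not test for an excess in the genes shown. In the windows of Mbp and Ugt8 no Myrf-type letters were present. SOX-type letters matched 3 times in 1 Mbp window, and were absent from the other Mbp window and from that of Ugt8. A match describes letters only, and binding was not measured.

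The signal is a linear intensity in arbitrary units, scaled by the submitters over each whole array, and a probe set's signal depends on its own probes as well as on the RNA. Array medians lay between 161.8 and 199.0. Tests were made with limma on log2(signal + 16), with 1 spread per probe set shared by all 6 groups, and a probe set was tested in a comparison where its mean in a tissue concerned exceeded a signal of 112.3. Of the 13 probe sets, 12 were tested in every comparison. The remaining one, the dimmer of the 2 Ugt8 probe sets, had signals of 0.354 to 11.3 over the 12 arrays, below that limit on each of them, and Ugt8 is described by its other probe set. In bulk tissue, fewer cells of a type and less RNA per cell cannot be told apart. The summed signal of 7 oligodendrocyte markers, Mog, Mobp, Mag, Opalin, Ermn, Cldn11 and Aspa, was 9440 and 6452 in acrylamide nerves, 10450 and 8804 in saline nerves, 63120 and 67180 in acrylamide cords, 62790 and 63110 in saline cords, 22580 and 21110 in acrylamide cerebella, and 22410 and 24520 in saline cerebella. The sum was thus highest in the spinal cord. Opalin was below 112.3 on both saline nerve arrays, and Mog, Mobp and Mag are themselves in this sum. The list was not uniform in the nerve: Aspa, the enzyme that cleaves N-acetylaspartate, differed by 0.74 on the log2 scale between saline nerve and cord and by 3.28 between nerve and cerebellum, while Cldn11, Ermn and Opalin differed by -3.59, -4.31 and -5.11 between nerve and cord.

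Both sciatic nerve replicate 1 arrays, 1 of each treatment, stood apart in carrying signal of cerebellar neuron genes. Over 13 such genes, the median signal was 14.4% of the saline cerebellum mean on acrylamide nerve replicate 1 and 1.12% on replicate 2, and 12.0% on saline nerve replicate 1 and 1.51% on replicate 2. For Pcp2, which marks Purkinje neurons, the signals were 2294 and 147.8 in the acrylamide nerves and 1597 and 162.2 in the saline nerves. In the spinal cord Pcp2 had 73.9 and 89.6 after acrylamide and 73.9 and 54.2 after saline, below each nerve array. For Mog and Mobp, the nerve arrays are therefore also given one at a time. Without the replicate 1 arrays each nerve group has 1 array, which the fit assumes to vary like the other groups.

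The tissue comparison in saline rats separated the genes into 2 patterns. Mog and Mobp were far lower in the nerve than in the spinal cord and cerebellum. Mag, Cnp, Mbp, Mal and Ugt8 were bright in all 3 tissues. Mal, Ugt8 and Mbp 1368810_a_at had their highest signals in the nerve, and of these only Mal was at least 2-fold above the cord.

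Mog (1398257_at) had signals of 285.9 and 13.8 in saline nerves, 6203 and 6313 in saline cords and 1934 and 2106 in saline cerebella. The same order held after acrylamide, with 273.7 and 16.3 in nerves, 6687 and 7004 in cords and 1547 and 1657 in cerebella. The 2 nerve arrays of either treatment thus differed from each other far more than the cords or the cerebella did. Mog was lower in saline nerve than in cord (fitted log2 difference -6.05 ± 1.08, limma's Benjamini-Hochberg adjusted p = 0.0012) and than in cerebellum (-4.42 ± 1.08, adjusted p = 0.00497). These sizes rest on which nerve array is used. Saline nerve replicate 1 was 21.9-fold below the geometric mean of the saline cords and 7.06-fold below that of the cerebella. Replicate 2 was under the signal of 112.3, and with that signal standing in it was at least 55.7-fold below the cords and at least 17.97-fold below the cerebella. As a share of the saline cerebellum mean, Mog reached 13.6% on acrylamide nerve replicate 1 and 0.809% on replicate 2, and 14.2% on saline nerve replicate 1 and 0.685% on replicate 2. The cerebellar neuron genes moved with Mog between these arrays, and their part in the Mog signal was not tested.

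Mobp followed the same pattern on its 3 probe sets. The brightest, 1370434_a_at, had signals of 2621 and 509.7 in saline nerves, 21830 and 22560 in saline cords and 9288 and 10190 in saline cerebella. Its signals after acrylamide were 1537 and 125.7 in nerves, 21040 and 22620 in cords and 9767 and 8896 in cerebella. Again replicate 1 was the higher nerve array under both treatments, and nerves did not overlap either central tissue. In saline rats the nerve-minus-cord log2 difference of 1370434_a_at was -4.24 ± 0.98 (adjusted p = 0.00487), and its nerve-minus-cerebellum difference was -3.05 ± 0.98 (0.0194). Saline nerve replicate 1 was 8.46-fold below the cords and 3.71-fold below the cerebella, and replicate 2 was 43.5-fold and 19.1-fold below them. Probe sets 1368263_a_at and 1370500_a_at were also called lower in nerve than in cord (adjusted p = 0.00092 and 0.000144) and than in cerebellum (0.00459 and 0.000741). On 1368263_a_at replicate 1 was 20.7-fold below the cords and 6.39-fold below the cerebella, and replicate 2, under the signal of 112.3, at least 58.9-fold and at least 18.2-fold. On 1370500_a_at replicate 1 was 22.6-fold and 7.28-fold below them, and replicate 2, at 110.2, at least 105.8-fold and at least 34.0-fold. All these nerve differences are thus larger on replicate 2. The call for 1370434_a_at against the cerebellum was lost without cerebellum saline replicate 1 (adjusted p = 0.0639), without cerebellum saline replicate 2 (0.0736) and without sciatic nerve saline replicate 2 (0.143, difference -1.89). On nerve replicate 2, probe set 1370434_a_at had 1.29% of the saline cerebellum mean after acrylamide and 5.23% after saline. On nerve replicate 1 it had 15.8% after acrylamide and 26.9% after saline.

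**Figure D1:**
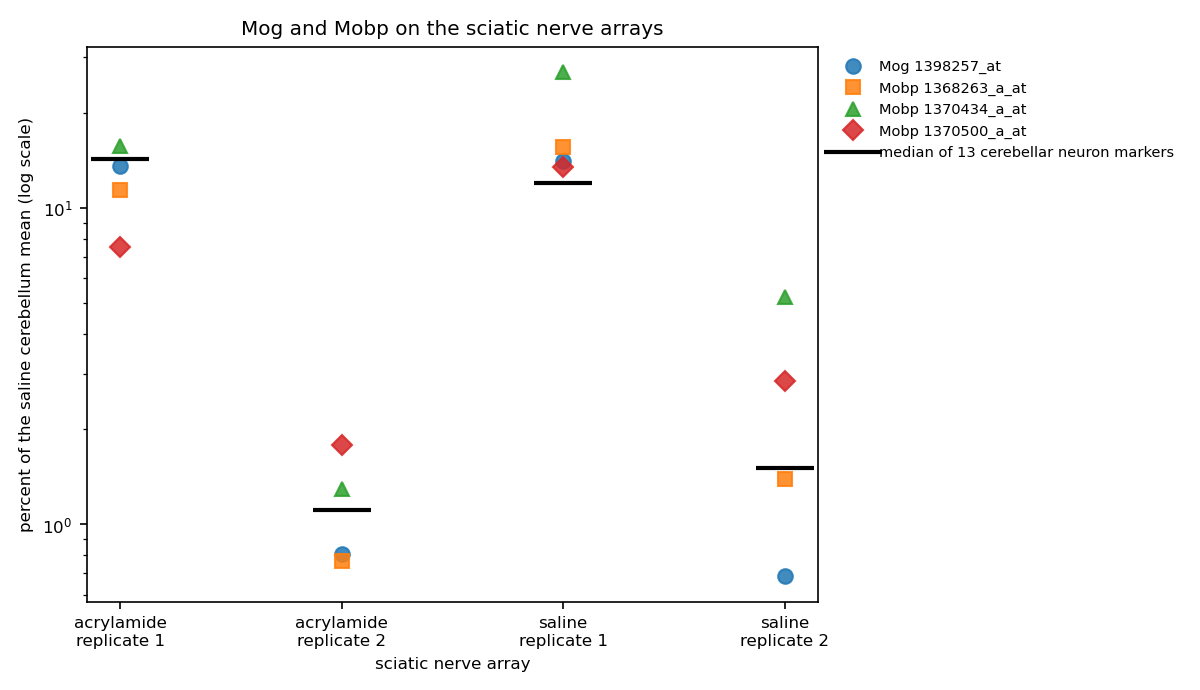
Signal of Mog and of the 3 Mobp probe sets on each sciatic nerve array, as a percent of the saline cerebellum mean (log axis), with a bar for the median of 13 cerebellar neuron genes. All 4 probe sets and the median lie between 7.55% and 26.9% on the replicate 1 arrays and between 0.685% and 5.23% on the replicate 2 arrays.

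Spinal cord and cerebellum were compared next, as these are the tissues with oligodendrocytes. Mog was higher in saline cord by 1.62 on the log2 scale, and the Mobp probe sets by 1.19 (1370434_a_at), 1.68 (1368263_a_at) and 1.63 (1370500_a_at). Cord and cerebellum arrays did not overlap for these 4 probe sets, and 11 of the 12 tested lay higher in cord without overlap, where 38.3% of all probe sets did. The fit over all arrays gave them adjusted p-values of 0.0697 to 0.33, because its shared spread held the nerve arrays that differed so widely (standard errors of 0.68 to 1.08). In a fit of cord and cerebellum arrays alone, the standard errors were 0.07 to 0.17 and all 4 passed (adjusted p = 5.18e-08 for Mog, and 4.04e-07, 2.1e-07 and 2.4e-05 for the Mobp probe sets in the order above).

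Mag (1368861_a_at) was brightest in the cord. Its signals were 2561 and 3683 in saline nerves, 8185 and 7919 in saline cords and 1672 and 1672 in saline cerebella. The 3 tissues did not overlap. Mag was higher in cord than in cerebellum by 2.26 ± 0.15 (adjusted p = 6.47e-06) and lower in nerve than in cord (-1.39 ± 0.15, adjusted p = 6.39e-05). Its nerve-to-cerebellum difference of 0.87 ± 0.15 passed the adjusted p (0.00062) but not the 2-fold limit set for tissue comparisons. That difference was past the limit, at 1.13, without sciatic nerve saline replicate 1.

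The 2 Cnp probe sets differed between nerve and cord. Probe set 1387897_at had signals of 10640 and 14310 in saline nerves, 14060 and 14390 in saline cords and 5609 and 6193 in saline cerebella. On this probe set nerve and cord overlapped, and both stood above the cerebellum. The cord was higher than the cerebellum by 1.27 ± 0.12 (adjusted p = 4.79e-05), and the nerve by 1.06 ± 0.12 (5.34e-05). Probe set 1370693_a_at had 3974 and 6045 in saline nerves, 7440 and 8167 in saline cords and 2116 and 2349 in saline cerebella. Its nerves lay below its cords without overlap (-0.67 ± 0.16, adjusted p = 0.00581), by less than the 2-fold limit. It gave 1.80 ± 0.16 for cord over cerebellum and 1.13 ± 0.16 for nerve over cerebellum (adjusted p = 3.02e-05 and 0.000186). The nerve-to-cerebellum differences of both Cnp probe sets fell under the 2-fold limit without sciatic nerve saline replicate 2 (0.85 and 0.83). Both also did so with quantile normalization (0.78 and 0.99). That of 1387897_at did so without cerebellum saline replicate 1 (0.99) and with acrylamide arrays added to the tissue comparison (0.98).

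The 3 Mbp probe sets disagreed on the tissues. Probe set 1383479_at had signals of 3726 and 6181 in saline nerves, 5698 and 6567 in saline cords and 1022 and 1253 in saline cerebella. It was higher in cord than in cerebellum by 2.42 ± 0.22 and in nerve than in cerebellum by 2.07 ± 0.22 (adjusted p = 3.32e-05 and 3.09e-05). Probe set 1387341_a_at had signals of 23020 and 26290 in saline nerves, 26090 and 26670 in saline cords and 11480 and 15740 in saline cerebella. Its cord-to-cerebellum difference was 0.97 ± 0.17 and missed the 2-fold limit, and it passed that limit at 1.20 without cerebellum saline replicate 2. Probe set 1368810_a_at was the flattest, with 23960 and 26090 in saline nerves, 18280 and 18420 in saline cords and 17810 and 22120 in saline cerebella, and its cord and cerebellum overlapped. On each array only 9 to 25 of the 31042 probe sets were brighter than 1368810_a_at, and 2 to 84 were brighter than 1387341_a_at, while 372 to 5586 were brighter than 1383479_at. Whether the flat profiles reflect the top of the arrays' range was not tested.

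Mal (1387040_at) had the steepest profile of the bright genes. Its signals were 16320 and 21410 in saline nerves, 8441 and 9673 in saline cords and 1174 and 1350 in saline cerebella. The tissues did not overlap. It was higher in cord than in cerebellum by 2.83 ± 0.13 (adjusted p = 1.49e-06) and higher in nerve than in cerebellum by 3.88 ± 0.13 (6.58e-08). Nerve exceeded cord by 1.05 ± 0.13 (adjusted p = 0.00018), just past the 2-fold limit, and this call was lost without spinal cord saline replicate 1 (0.95), without sciatic nerve saline replicate 2 (0.85) and with quantile normalization (0.67). Ugt8 (1368858_at) had signals of 8774 and 10650 in saline nerves, 7611 and 7465 in saline cords and 1371 and 1413 in saline cerebella. Nerve and cord did not overlap but differed by less than the 2-fold limit (0.36 ± 0.10, adjusted p = 0.0139), and both were above the cerebellum, the cord by 2.42 ± 0.10 (8.37e-07) and the nerve by 2.78 ± 0.10 (8.82e-08).

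Counted over the 12 probe sets tested, 6 were called higher in cord than in cerebellum and none lower, where 12.1% of all 20459 probe sets tested were called higher and 9.53% lower. In the fit of those tissues alone 10 were called higher, against 12.5% of all. Between nerve and cord 5 were called lower and 1 higher, against 15.5% and 10.6% of all probe sets. With quantile normalization these counts were 5 lower and 0 higher. Between nerve and cerebellum 5 were called higher and 4 lower, against 17.7% and 20.6%, with 3 higher and 4 lower under quantile normalization and 7 higher and 4 lower under median centring. Probe sets of 1 gene share a target and are not independent: by gene, on the brightest probe set of each, 4 of 7 were called higher in cord than in cerebellum. Median centring moved the median of all probe sets from 0.04 to 0.22 for nerve minus cord and from -0.14 to 0.06 for nerve minus cerebellum, since nerve arrays had the lower medians.

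**Figure D2:**
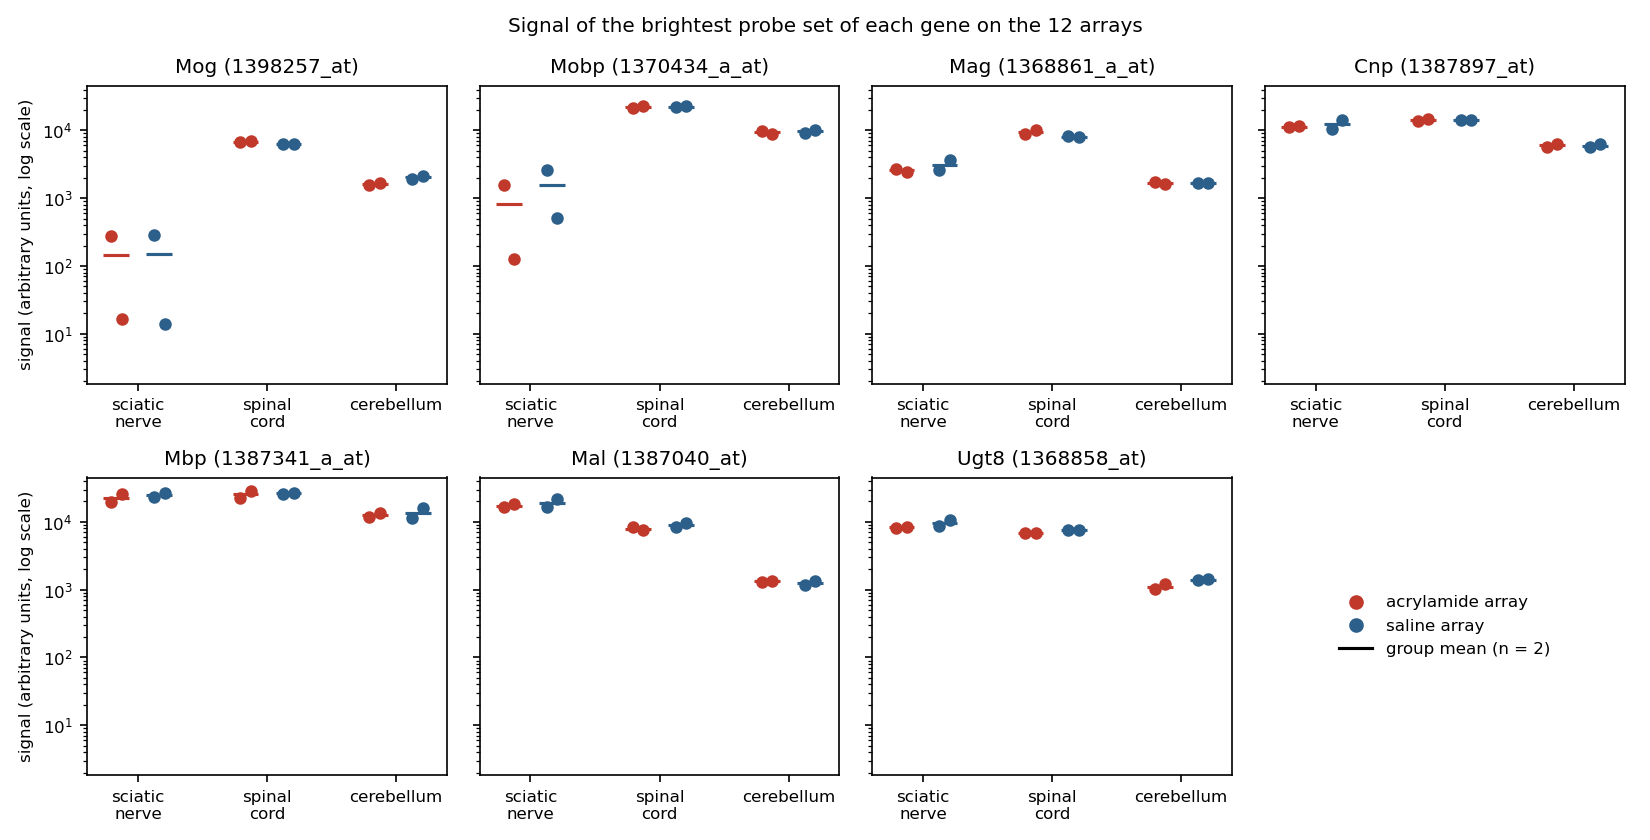
Signal of the brightest probe set of each gene (log axis, arbitrary units) on the 12 arrays, by tissue, with acrylamide to the left of saline and a line at the mean of the 2 arrays. Mog and Mobp drop in nerve and spread between its arrays, Mal and Ugt8 are highest in nerve, and acrylamide and saline points lie close together elsewhere.

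A wider list of central myelin and mature oligodendrocyte genes gave context. Of its 39 genes, 34 were on the arrays, and 24 were called higher in saline cord than in cerebellum and none lower, where 12.1% and 9.53% of all probe sets were (median log2 difference 1.72, against -0.06 for all probe sets tested). Between nerve and cord 19 were called lower and 4 higher, against 15.5% and 10.6%. Tspan2, a tetraspanin, was lower in nerve than in cord by a log2 difference of -2.27 ± 0.10 (adjusted p = 1.48e-06), and Plekhh1 by -3.86 ± 0.18 (1.6e-06). Ndrg1, which is abundant in Schwann cells as well, was higher in cord than in cerebellum by 2.49 ± 0.09, and Cryab, a small heat shock protein, by 2.35 ± 0.11 (adjusted p = 5.79e-07 and 1.21e-06). Of 18 genes for myelin galactolipids and very long chain lipids, 15 were on the arrays. Of these, 8 were called higher in cord than in cerebellum (12.1% of all probe sets) and 9 in nerve than in cerebellum (17.7%). None was called lower in either comparison, against 9.53% and 20.6% of all probe sets. Fasn, fatty acid synthase, was higher in nerve than in cerebellum by 2.12 ± 0.09 (adjusted p = 1.76e-07), and Cers2, a ceramide synthase for very long acyl chains, by 2.51 ± 0.13 (5.58e-07). Of 8 peripheral myelin genes, 6 were on the arrays. All 6 were called higher in cord than in cerebellum, against 12.1% of all probe sets. Pmp2, a lipid-binding protein of Schwann cell myelin, had signals of 4646 and 5213 in saline cords and 11.9 and 7.95 in saline cerebella, at least 43.8-fold higher in cord (adjusted p = 3.62e-08). The cord arrays thus held signal of peripheral myelin genes, and its part in the cord levels of Mag, Cnp, Mbp, Mal and Ugt8 was not tested.

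**Figure D3:**
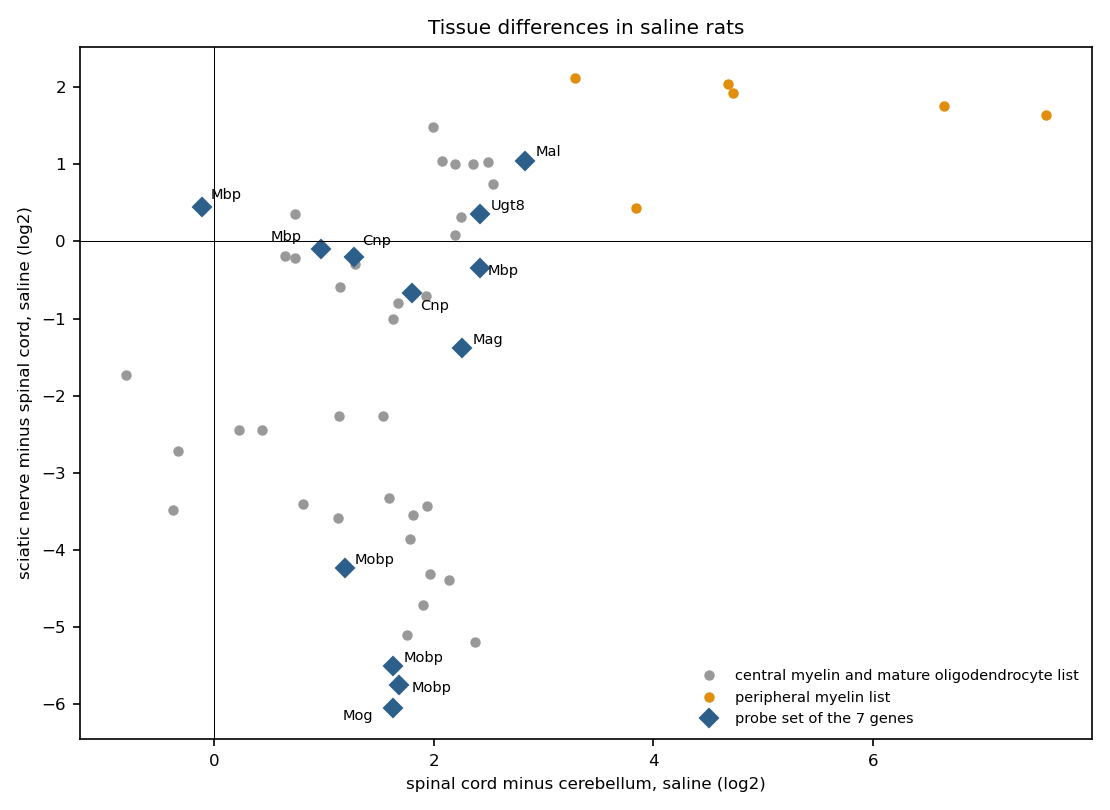
Log2 difference of spinal cord minus cerebellum (horizontal) and of sciatic nerve minus spinal cord (vertical) in saline rats, for the 12 probe sets of the 7 genes, 34 central myelin genes and 6 peripheral myelin genes. Mog and Mobp lie at -4.24 or below on the vertical axis, and Mal at 1.05.

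The genes with the most similar profiles were sought by Pearson's r of log2(signal + 16) over the 12 arrays, which share 3 tissues and the 2 nerve replicate 1 arrays, so that r takes in both. Nearest to Mog were Stmn4 (r = 0.995), Opalin (0.993) and Edil3 (0.993). Stmn4 encodes a stathmin and Opalin an oligodendrocyte membrane protein, and Stmn4 had 625.0 and 196.5 in acrylamide nerves and 586.6 and 199.4 in saline nerves. Nearest to Mobp were Nap1l5 (0.989), Acsl6 (0.987) and Cds1 (0.985). Nap1l5 had 1354 and 116.9 in acrylamide nerves and 1320 and 238.3 in saline nerves, so that it too was higher on both replicate 1 arrays, as were the other 5 neighbours of Mog and Mobp. Nearest to Mag were Rimbp2 (0.995), Nkd1 (0.994) and Chchd6 (0.993). Nearest to Cnp were Pip4k2a (0.995), Josd2 (0.995) and Gamt (0.993), and nearest to Mbp were Fscn1 (0.977), Ptp4a3 (0.977) and Mvk (0.975). Nearest to Mal were Ndrg1 (0.999), Pllp (0.999) and Capn2 (0.999), of which Pllp encodes plasmolipin, a relative of the Mal protein. Nearest to Ugt8 were Acly (0.998) and Dhcr7 (0.996), enzymes of lipid and cholesterol synthesis, and Pmp22 (0.996), a protein of compact peripheral myelin.

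Acrylamide was compared with saline within each tissue. None of the 12 probe sets passed limma's Benjamini-Hochberg adjusted p of 0.05 in the cerebellum, the spinal cord or the sciatic nerve, where 0%, 0% and 0.00551% of all probe sets passed. None passed on the average over tissues (0.00938% of all) or in the F test of differences between tissues (0% of all). At an unadjusted p under 0.05 there was 1 probe set in the cerebellum, Ugt8 1368858_at, and none in the cord or the nerve, against 2.75%, 2.88% and 5.1% of all probe sets. On the average over tissues there were 2, Ugt8 1368858_at and Mbp 1383479_at, against 5.56%. Acrylamide thus gave no called change in any of the 7 genes, and the sizes below are estimates with their errors.

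Ugt8 had the most regular estimate. In acrylamide cerebella its signals were 1026 and 1197, against 1371 and 1413 in saline cerebella. In acrylamide cords they were 6797 and 6949, against 7611 and 7465 in saline cords. In acrylamide nerves they were 8016 and 8533, against 8774 and 10650 in saline nerves. Both acrylamide arrays lay below both saline arrays in each tissue. The log2 differences were -0.32 ± 0.10 in cerebellum (95% interval -0.55 to -0.09, unadjusted p = 0.0108), -0.13 ± 0.10 in cord and -0.22 ± 0.10 in nerve, with adjusted p-values of 1, 1 and 0.967. The average over tissues was -0.23 ± 0.06 (unadjusted p = 0.0037, adjusted p = 0.588). Over the fits that left out 1 array the adjusted p of this average ranged from 0.0957 to 1, and with both nerve replicate 1 arrays left out it was 0.0456 (difference -0.26).

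Mbp 1383479_at also had lower estimates in each tissue. Its signals were 972.1 and 928.1 in acrylamide cerebella and 1022 and 1253 in saline cerebella, 4499 and 5208 in acrylamide cords and 5698 and 6567 in saline cords, and 3447 and 4321 in acrylamide nerves and 3726 and 6181 in saline nerves. The groups did not overlap in cerebellum and cord, and they overlapped in nerve. Its differences were -0.25, -0.34 and -0.31 (SE 0.22 each) and the average was -0.30 ± 0.13 (unadjusted p = 0.041, adjusted p = 0.87). Probe sets 1387341_a_at and 1368810_a_at averaged -0.08 ± 0.10 and -0.04 ± 0.06 over the tissues.

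Mog was estimated lower in the cerebellum after acrylamide and higher in the cord, with no overlap in either tissue. Its signals are those given above, 1547 and 1657 in acrylamide cerebella against 1934 and 2106 in saline cerebella, and 6687 and 7004 in acrylamide cords against 6203 and 6313 in saline cords. The log2 differences were -0.33 in cerebellum and 0.13 in cord, with a shared standard error of 1.08 that again comes from the nerve arrays. In fits of 1 tissue alone the standard errors were 0.08 and 0.06, and the unadjusted p-values were 0.00314 and 0.0701 (adjusted p = 0.522 and 0.932). In the cerebellum alone 2 of the 12 probe sets, Mog and Ugt8, had an unadjusted p under 0.05, against 5.26% of all, and in the cord alone 2 did, Mag and Mbp 1383479_at, against 5.44%. The F test of a difference between tissues used the spread shared with the nerve arrays. The adjusted p of 1 it gave Mog therefore cannot decide if cerebellum and cord differ.

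Mag in the cord was 8707 and 9956 after acrylamide and 8185 and 7919 after saline, again without overlap. Its difference was 0.21 ± 0.15 in the fit over all arrays and 0.21 ± 0.08 in the cord alone (unadjusted p = 0.028, adjusted p = 0.865). In the cerebellum its difference was 0.00 ± 0.15, and in the nerve it was -0.26 ± 0.15. The differences of Cnp lay between -0.13 and 0.04 over both probe sets and all tissues, and those of Mal between -0.19 and 0.07. For Mobp the differences ran from -0.15 to 0.08 in cerebellum and cord and from -1.33 to -0.46 in nerve, where the standard errors were 0.68 to 0.98. The 95% interval of Mobp 1370434_a_at in nerve was -3.53 to 0.88. On 1368263_a_at the signals were 234.3 and 15.8 in acrylamide nerves and 320.1 and 28.6 in saline nerves, and on 1370500_a_at they were 292.8 and 69.0 in acrylamide nerves and 525.1 and 110.2 in saline nerves. The groups overlapped on all 3 Mobp probe sets, while each acrylamide array lay below the saline array of the same number, a number that the labels do not tie to a shared source.

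**Figure D4:**
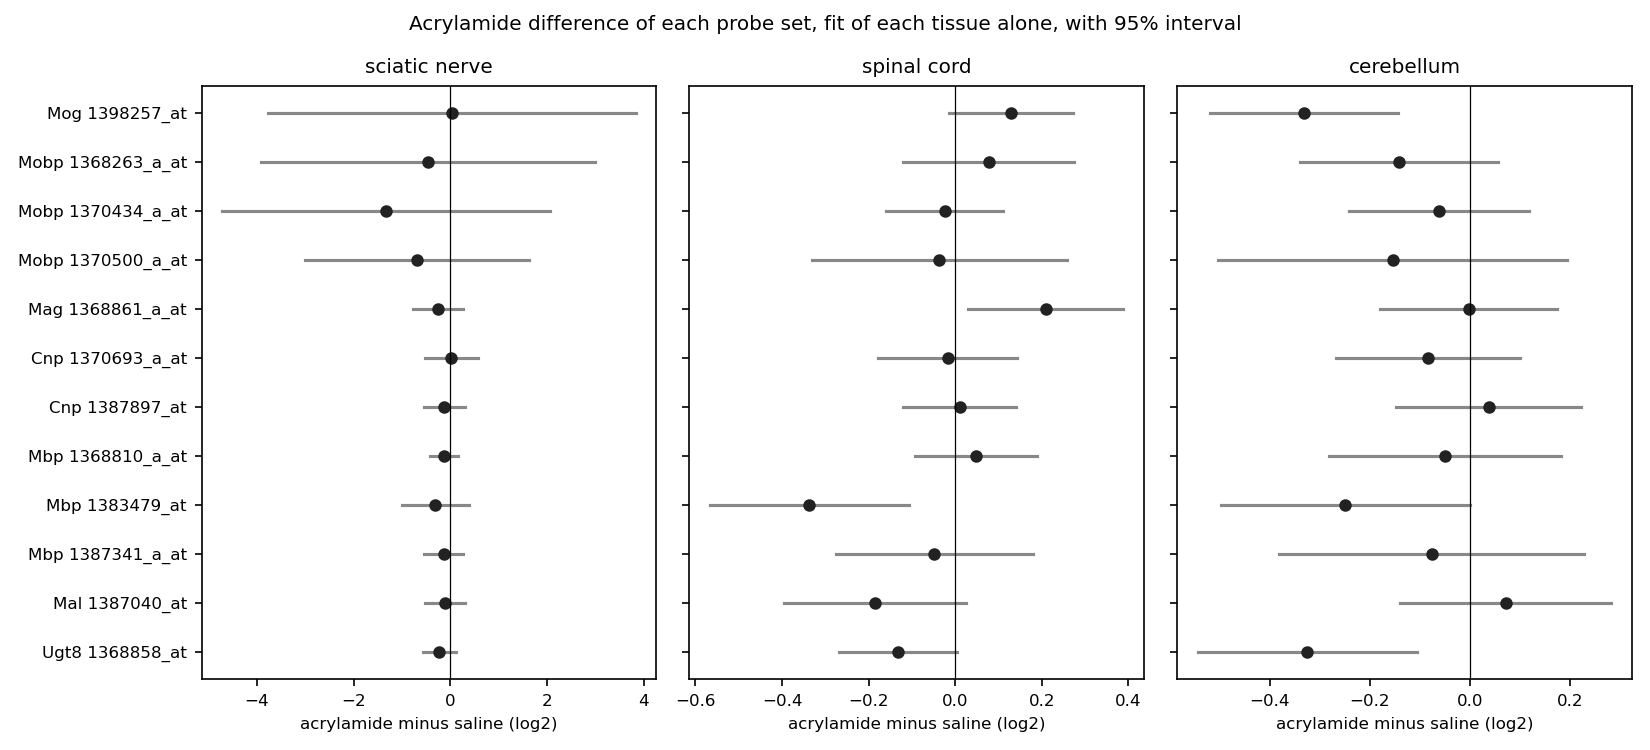
Log2 difference of acrylamide minus saline for the 12 probe sets in each tissue, from a limma fit of that tissue alone, with 95% intervals (the horizontal scales of the 3 panels differ). No probe set passed the adjusted threshold, and the intervals of Mog and Mobp in nerve are several units wide.

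Leaving out both nerve replicate 1 arrays changed the nerve comparison, which then set 1 acrylamide array against 1 saline array. Of 9 probe sets still tested, 2 were called lower after acrylamide, Mag (2417 against 3683, log2 difference -0.60 ± 0.10, adjusted p = 0.0207) and Mobp 1370434_a_at (125.7 against 509.7, -1.89 ± 0.10, adjusted p = 0.000151). In that fit 2.17% of all probe sets were called in either direction, against 0.00551% in the fit with all arrays. Mog and the other 2 Mobp probe sets were under the signal limit there and were not tested. The spread between pools of nerve tissue cannot be estimated from 1 array per group. The errors given here for Mag and Mobp 1370434_a_at therefore rest on the cord and cerebellum arrays. For Mobp 1370434_a_at the standard error in nerve was 0.98 in the fit with all arrays, and its 125.7 lay close to the signal limit of 112.3.

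Directions were also counted over the 12 probe sets. In the cerebellum 4 lay lower after acrylamide without overlap and 0 higher, where 16.6% and 17.1% of all probe sets did so. In the cord 2 lay lower and 2 higher, against 15.9% and 17.7%. In the nerve 1 lay lower and 0 higher, against 12.9% and 13.3%. Differences were below 0 for 10 of 12 in cerebellum, 7 of 12 in cord, 10 of 12 in nerve and 12 of 12 on the average, where 50.1%, 48.7%, 49.7% and 49.1% of all probe sets were below 0. The 12 probe sets are not independent. By gene, on the brightest probe set of each, 5, 4, 6 and 7 of 7 were below 0. The count on the average was 11 of 12 with quantile normalization and 12 of 12 with median centring, but it rested on single nerve arrays: it was 7 of 12 without sciatic nerve acrylamide replicate 2 and 9 of 12 without sciatic nerve saline replicate 1 or 2. The cerebellum's count was 6 without cerebellum saline replicate 2 and 7 without cerebellum acrylamide replicate 1. The cord's count was 3 without spinal cord acrylamide replicate 1 and 10 without acrylamide replicate 2, and the nerve's was 7 without sciatic nerve saline replicate 2 or acrylamide replicate 2. The median over the brightest probe sets of the 7 genes was -0.06 in cerebellum, -0.02 in cord and -0.13 in nerve, against 0.00 for all probe sets tested in each tissue.

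The context lists likewise held no called gene in any acrylamide comparison. Central myelin genes above 0 were 18 of 34 in cerebellum (median 0.005) and 12 of 29 in nerve (-0.081). On the average over tissues they were 19 of 34 (0.015). In the cord 26 of 34 central myelin genes were above 0 with a median of 0.10, against 0.00 for all probe sets. Of all probe sets 48.7% were below 0 in the cord. Without overlap 15 lay higher and 5 lower, where 17.7% and 15.9% of all probe sets did. Tspan2 differed by 0.22 ± 0.10 and Cryab by -0.43 ± 0.11 there (adjusted p = 1 for both). Cryab had signals of 7302 and 6995 in acrylamide cords and 9176 and 10170 in saline cords, so its groups did not overlap. Of 15 lipid synthesis genes, 9 were below 0 in cerebellum, 11 in cord, 12 in nerve and 13 on the average. Of all probe sets 50.1%, 48.7%, 49.7% and 49.1% were below 0 in these comparisons. Fa2h, which adds the 2-hydroxy group to the fatty acids of galactolipids, averaged -0.34 ± 0.10 over the tissues and Fasn -0.20 ± 0.05 (adjusted p = 0.672 and 0.62). Fa2h had signals of 3520 and 3604 in acrylamide cords and 4284 and 4667 in saline cords, and 708.0 and 718.2 in acrylamide cerebella and 794.7 and 956.3 in saline cerebella. Its groups did not overlap in any of the 3 tissues. Of all probe sets, 16.6% in cerebellum, 15.9% in cord and 12.9% in nerve lay lower without overlap.

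Peripheral myelin genes were lower in acrylamide cords: all 6 lay below saline without overlap, where 15.9% of all probe sets did, with a median of -0.61, and none passed the adjusted threshold. Pmp2 had signals of 2674 and 2645 in acrylamide cords and 4646 and 5213 in saline cords (log2 difference -0.88 ± 0.16, adjusted p = 1). The summed signal of 6 Schwann cell markers was 16730 and 12280 in acrylamide cords, against 20290 and 24940 in saline cords, and in cerebella it was 473.9 and 455.5 after acrylamide and 428.3 and 454.6 after saline, with 5 of the 6 under the signal limit. The lower sum in acrylamide cords stood beside cord estimates of -0.34 for Mbp 1383479_at, -0.13 for Ugt8 and -0.19 for Mal. The other Mbp probe sets were at -0.05 and 0.05, those of Cnp at -0.02 and 0.01, and Mag at 0.21. The part of the lower sum in these estimates was not tested. Summed microglial markers were 7800 and 7424 in acrylamide cords against 5335 and 5303 in saline cords, and summed astrocyte markers 59600 and 59400 against 52360 and 52520. Muscle markers stood at 36180 on spinal cord saline replicate 1 and between 4257 and 5634 on the other cord arrays. Fat cell markers stood at 5230 and 7633 in acrylamide nerves and at 21390 and 3593 in saline nerves. The part of these other markers in the results was not tested.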

How the data were processed

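Expression was measured in total RNA as biotin-labelled cRNA on Affymetrix rat arrays, per the labels' protocols. The deposited values are intensity signals on a linear scale, 1 per probe set. The submitters' processing notes name GCOS 1.1, and the sources used here do not give its algorithm, background correction or scaling target. The mean after trimming 2% at each end was 500.1 or 500.2 on every array, so a single factor per array had been applied before deposit.

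Groups and replicate numbers came from the titles. The 7 genes, gene lists and tests were chosen with earlier results of these data known. Of 31099 probe sets, 57 controls were left out. The platform annotation gave 1 symbol for 20826, several for 436 and none for 9780, and symbols were checked through RefSeq's gene table. With limma 3.58.1 under R 4.3.3, log2(signal + 16) was fitted with 1 mean per group (lmFit, eBayes with an intensity trend, 6 residual and 3.13 prior degrees of freedom). A probe set was tested where its tissue mean lay above the 40th percentile of all such means, which left 21332 in the fit, and a low gene's difference is understated. Two-sided p-values were adjusted by Benjamini-Hochberg over all probe sets tested in a contrast, at 0.05, with at least a 2-fold difference between tissues. The procedure was tested on simulated data. The number of arrays limits the precision.

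All probe sets of the 7 genes were named, with the 3 other genes of highest r per gene and the 2 genes of smallest p per list and comparison. Genes named as cell markers or with values shown beside a result were added after values were seen. In lists each gene stands for its brightest probe set. Saline and acrylamide samples of the same number deviated together with r of 0.06 in cerebellum, -0.06 in cord and 0.42 in nerve, and with 2 arrays a group and no label that ties the numbers to a shared source they were not taken as pairs.

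The results were recomputed with a pseudocount of 1 or 64, without a filter or with one at the 60th percentile, after quantile normalization or median centring, with robust or untrended eBayes, at a threshold of 0.1, on the brightest probe set of a gene, with replicate blocks, on the compared tissues alone, with acrylamide arrays added to tissue contrasts, without both nerve replicate 1 arrays, and without each array in turn.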

Additional observations from a re-analysis of the deposited data

How the results depend on the processing

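The count of 0 called probe sets of the 7 genes held in each tissue's acrylamide comparison, on the average and in the F test under each alternative run except 1. With both sciatic nerve replicate 1 arrays left out there were 2 in nerve, 2 on the average (Ugt8 and Mobp 1370434_a_at) and 1 in the F test (Mobp 1370434_a_at, adjusted p = 0.00155), while over all probe sets the counts were 389, 275 and 98, against 1, 2 and 0 with all arrays. Over all probe sets the nerve count was 21 without sciatic nerve saline replicate 1 and 15 without sciatic nerve saline replicate 2, and the average's count ranged from 0 to 32 over the single arrays left out. A threshold of 0.1 gave 7 on the average, quantile normalization 4 and a replicate block 6. The 6 probe sets called between cord and cerebellum became 10 with the replicate block within each tissue, 10 with the compared tissues alone and 10 without the nerve replicate 1 arrays. The 9 called between nerve and cerebellum became 5 with 1 probe set per gene, which leaves 7 to test. With 1 array left out, the counts ranged from 6 to 7 for cord against cerebellum, from 5 to 6 for nerve against cord and from 6 to 10 for nerve against cerebellum, and stayed at 0 to 0 for acrylamide. The block changed no other count of the 7 genes' calls by over 1.5 times; a random replicate block had a correlation of 0.125.

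The median over the 7 genes for acrylamide ranged from -0.13 to 0.0052 in cerebellum, from -0.08 to 0.05 in cord and from -0.32 to -0.035 in nerve with 1 array left out, and was -0.32 in nerve without both replicate 1 arrays. Of 39 single results, some differences turned sign in some settings. For nerve against cord, Mbp 1383479_at turned to 0.015 and Cnp 1387897_at to 0.0091 without both nerve replicate 1 arrays. With 1 array left out, that difference ranged from -0.71 to 0.015 for Mbp 1383479_at and from -0.42 to 0.0091 for Cnp 1387897_at, with the upper end of each reached without sciatic nerve saline replicate 1. Mbp 1387341_a_at turned for nerve against cord with median centring (0.080). For nerve against cerebellum, Mbp 1368810_a_at was 0.33 ± 0.10 in the main fit (limma's adjusted p = 0.0167). With quantile normalization it turned to -0.13 ± 0.04 (limma's adjusted p = 0.022), so its direction there depends on the normalization. For cord against cerebellum it ranged from -0.27 to 0.043, the upper value without cerebellum saline replicate 2. Apart from the single arrays left out, 574 single values kept direction and side of the threshold, 21 gained a call and 4 lost one. The cause of these shifts was not tested. The fit of the compared tissues alone cannot give the average or the F test. Mog, Mobp 1368263_a_at and Mobp 1370500_a_at lay under 112.3 on both nerve replicate 2 arrays, so folds against those arrays are bounds.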

Other observations

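Of 13 transcription factors of the oligodendrocyte lineage, 12 were on the arrays, and 8 were called higher in saline spinal cord than in cerebellum and none lower, against 12.1% and 9.53% of all probe sets. Between nerve and cord 6 were called lower and 3 higher, against 15.5% and 10.6%. Myrf, which activates myelin genes in oligodendrocytes, had signals of 137.1 and 141.6 in saline nerves, 1704 and 1950 in saline cords and 345.2 and 411.1 in saline cerebella. It was lower in nerve than in cord (log2 difference -3.57 ± 0.15, limma's adjusted p = 1.48e-06) and higher in cord than in cerebellum by 2.23 ± 0.15 (8.06e-06). Its 2 saline nerve arrays lay close together, unlike those of Mog. Its acrylamide nerve arrays had 196.3 on replicate 1 and 142.8 on replicate 2. Nkx6-2, a homeobox factor of the lineage, was at least 4.27-fold lower in saline nerve than in cord (adjusted p = 3.21e-06). Zeb2 and Sox17 were higher in nerve than in cerebellum, by 2.16 ± 0.10 and 2.34 ± 0.12 (adjusted p = 2.47e-07 and 4.76e-07). After acrylamide none of the list was called in any tissue, and Myrf in the cord had 2187 and 2086, against 1704 and 1950 after saline (0.23 ± 0.15, adjusted p = 1).

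Of 13 genes of oligodendrocyte precursors, 10 were on the arrays and 9 were tested between tissues. In saline cord 4 were called higher than in cerebellum and none lower, against the same 12.1% and 9.53%. Pdgfra, the growth factor receptor of precursors and also of fibroblasts, was higher in cord than in cerebellum by 1.29 ± 0.15 (adjusted p = 0.000149) and in nerve than in cerebellum by 2.21 ± 0.15 (2.48e-06). Rlbp1, a retinaldehyde-binding protein, was lower in nerve than in cord (-2.58 ± 0.14, adjusted p = 2.93e-06). Acrylamide called none of these genes in any tissue.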
